A study of Homo sapiens with 6 samples.

Results

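Both arms of miR-31 were measured in breast cancer stem-like cells (BCSCs) with and without rosmarinic acid (RA). They were all the deposited entries whose name starts with hsa-miR-31-, which gave 2 of 449 listed mature miRNAs, hsa-miR-31-5p and hsa-miR-31-3p. The BCSCs were grown as floating spheres from MDA-MB-231, a human triple-negative breast carcinoma line, so that every library comes from 1 cell line of wild-type genotype. Small RNA was sequenced in 3 RA libraries (200 μg/mL RA, a plant phenolic acid extracted from S. glabra, for 48 h) and in 3 control libraries (0 μg/mL, 48 h). In both groups the seeding medium held cholera toxin and the sphere medium bFGF and EGF. The methods name serum with RA in the migration assay, but do not describe the treatment medium of the sequenced cells. RA was dissolved in dimethyl sulfoxide, which the paper names as the control of its viability assay. Whether replicates were independent cultures is not in the labels, which name 3 wells per group, and p-values here cover only the variation among these libraries, which may be technical. The labels and the methods name different Illumina sequencers, and the extraction text in the labels describes brain tissue.

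A miRNA hairpin is cut by Drosha and Dicer into a short duplex, of which one strand, the guide, is kept by Argonaute and pairs with target mRNAs through its seed (bases 2 to 8), while the passenger strand is mostly lost. miR-31-5p is the main strand of its hairpin. It is known as a suppressor of breast cancer metastasis, among whose targets are RHOA, a GTPase of cell motility, RDX, which links actin to the membrane, and the integrin subunit ITGA5, and in breast cancer lines its level has been described as lower in the more metastatic ones. In other tumours, such as colorectal carcinoma, it is often raised.

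The hairpin and its 5p strand carry the entries described here. In the first line the capitals mark the mature 5p strand within the hairpin, and in the second they mark the seed. Both were taken from RefSeq (GRCh38.p14), 5′ to 3′.
MIR31 hairpin: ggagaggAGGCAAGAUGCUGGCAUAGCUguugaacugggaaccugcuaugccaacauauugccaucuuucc
miR-31-5p: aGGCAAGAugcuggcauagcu
The 5p strand is 21 bases long and takes bases 8 to 28 of the 71 bases of the hairpin. No other mature miRNA among the 2370 in the RefSeq table had its seed, and 1 of 1562 hairpins held its sequence, though the table does not hold every listed miRNA. The hairpin lies at chr9:21512115-21512185 on the minus strand (GRCh38), within an intron of the long non-coding host gene MIR31HG in GENCODE, 34823 and 47304 bases from the nearest exons. The tumour suppressor gene CDKN2A, which MDA-MB-231 is known to have lost, lies 455568 bases away. The submitters' processing notes name hg19, and since the table is keyed by miRNA name, these positions are those of GRCh38 alone. The nearest other listed miRNA on the chromosome was miR-491-5p, 796038 bases away, with 1, 0 and 1 reads in the RA libraries and 4, 10 and 3 reads in the controls.

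The deposited values are CPM, read counts that the authors scaled to an effective library size. They were whole multiples of the value of 1 read in each library, so reads could be recovered. The RA libraries held 176590 to 1158116 miRNA reads and the control libraries 2190324 to 4111404, so that depth cannot be told apart from treatment. One read stood for 0.987 to 5.21 CPM in the RA libraries and for 0.233 to 0.526 CPM in the controls. The epithelial miRNAs miR-141-3p and miR-205-5p were not among the entries analysed here, and the 5 measured epithelial markers summed to 183 to 282 CPM in the RA libraries and 195 to 278 CPM in the controls. The 6 markers of mesenchymal-like breast lines, led by miR-10b-5p, summed to 49326 to 75881 CPM in the RA libraries and 58501 to 66372 CPM in the controls. Of 13 measured markers of blood, endothelium, liver and muscle, 1 was higher in limma (miR-451a of red blood cells) and none was lower, where limma called 2.9% of all miRNAs higher. The groups overlapped for miR-451a, with 26.0 CPM in RA replicate 2 and 33.8 CPM in control replicate 2. The blood marker miR-486-5p averaged 328 CPM after RA and 383 CPM in the controls. miR-144-3p and miR-144-5p had at most 6 reads in any library. On recovered reads edgeR called 6 of the 13 higher, DESeq2 3 and limma-voom 3. Over all 449 miRNAs these tools called 38, 45 and 47 higher. The sum of the 13 markers was 2386 to 13178 CPM in the RA libraries and 2563 to 2972 CPM in the controls. The highest sum was that of RA replicate 1, which held 9493 CPM of the liver miRNA miR-122-5p. Several defining markers were at 0 in some RA libraries, among them miR-126-3p in replicate 2, miR-150-5p in replicates 1 and 2 and miR-122-5p in replicate 3, while the blood cell miRNAs miR-142-5p and miR-142-3p were present in all 6 libraries. The part of these markers in the results below was not tested.

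miR-31-5p was one of the abundant miRNAs of these cells and fell after RA. It stood at 3463, 3053 and 3426 CPM in RA replicates 1, 2 and 3, and at 7635, 4767 and 6193 CPM in control replicates 1, 2 and 3. The groups did not overlap, and the highest RA value was 0.726 of the lowest control value. The RA libraries were close to each other, at 3314 ± 227 CPM, while the controls were spread over 6199 ± 1434 CPM (SD, n = 3 each). These levels rested on 3507, 586 and 1178 reads in the RA libraries and on 14513, 20479 and 19286 reads in the controls. In the shallowest library, RA replicate 2, the 95% Poisson interval of 586 reads ran from 2810 to 3310 CPM, and that of the lowest control from 4702 to 4833 CPM. Intervals on reads cover counting error only, since PCR copies were not told apart. By share of all miRNA reads, miR-31-5p took 0.303%, 0.332% and 0.395% in the RA libraries and 0.663%, 0.498% and 0.563% in the controls, with exact binomial intervals of 0.306% to 0.360% in RA replicate 2 and 0.491% to 0.505% in control replicate 2. The groups did not overlap in these shares of the library total either.

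**Figure D1:**
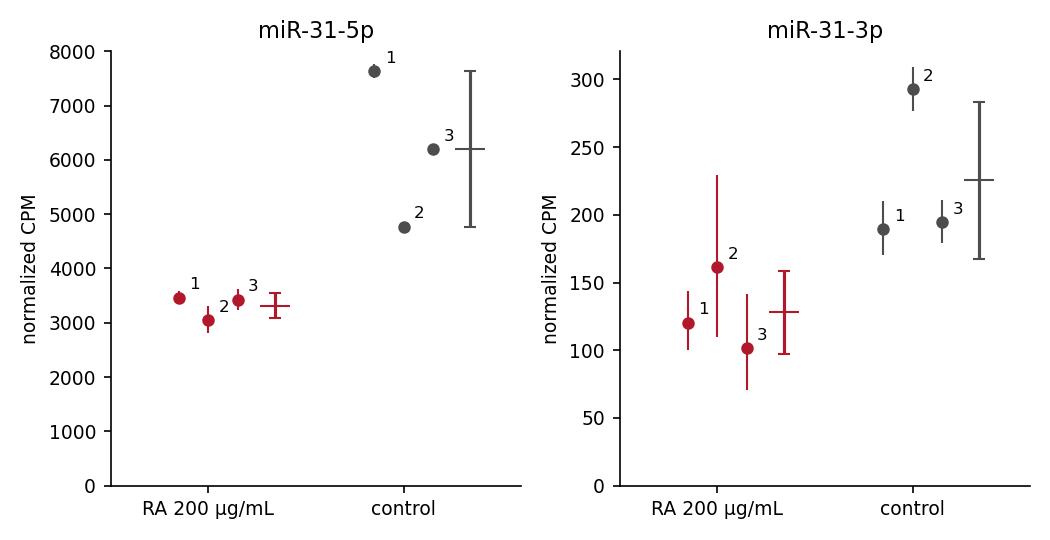
Normalized CPM of miR-31-5p (left) and miR-31-3p (right) in each RA and control library. Points are libraries numbered by replicate, with 95% Poisson intervals of their reads, and the bars to their right give mean and SD (n = 3). In both arms the 3 RA points lie below the 3 control points, and control replicate 2 is the lowest control for 5p and the highest for 3p.

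The log2 fold change of miR-31-5p, RA over control, was -0.88 (standard error 0.21, 95% interval -1.33 to -0.43, adjusted p = 0.022 from limma over all 449 miRNAs). On the linear scale this is 0.544 of the control level, with an interval from 0.398 to 0.743. The estimate is short of the change of more than 2-fold that the methods ask for. The group values that the authors give as log2 of CPM were 11.69 for RA and 12.60 for control. In this comparison limma called 7.57% of all miRNAs, 4.68% lower (21 miRNAs) and 2.9% higher (13 miRNAs), and it called 8.08% of the 260 miRNAs averaging 10 CPM or more lower. With library total scaling the split was 11 lower and 17 higher, and with upper-quartile scaling 12 lower and 17 higher. The share of miRNAs with all RA libraries below all controls was 17.1% (8.69% had all above), or 26.2% among those 260, so the separation alone is common among abundant miRNAs. An exact two-sided permutation test of the 3 RA against the 3 control values gave p = 0.1, the smallest that 3 against 3 allows. The call from limma ended without RA replicate 2 (adjusted p = 0.097), RA replicate 3 (adjusted p = 0.16), control replicate 1 (adjusted p = 0.16) or control replicate 3 (adjusted p = 0.095), and with upper-quartile scaling (adjusted p = 0.063). Without RA replicate 1, the library rich in miR-122-5p, limma gave -0.91 on the log2 scale, with an adjusted p of 0.025. The total RNA came from many cells together, so that fewer cells with miR-31 and less miR-31 per cell cannot be told apart.

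miR-31-3p, the passenger strand, was a minor product of the hairpin. It stood at 120.5, 161 and 102 CPM in RA replicates 1, 2 and 3, from 122, 31 and 35 reads. In control replicates 1, 2 and 3 it stood at 189, 293 and 195 CPM, from 360, 1257 and 606 reads. Here too every RA library lay below every control, but RA replicate 2, with its 95% Poisson interval from 109.7 to 229 CPM, could not be told from control replicates 1 and 3 within counting error. The means were 128 ± 30.5 CPM after RA and 226 ± 58.1 CPM in the controls (SD, n = 3 each). Its log2 fold change of -0.81 (standard error 0.28, 95% interval -1.42 to -0.20) did not pass (adjusted p = 0.10 from limma, and an exact permutation p of 0.1).

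**Figure D2:**
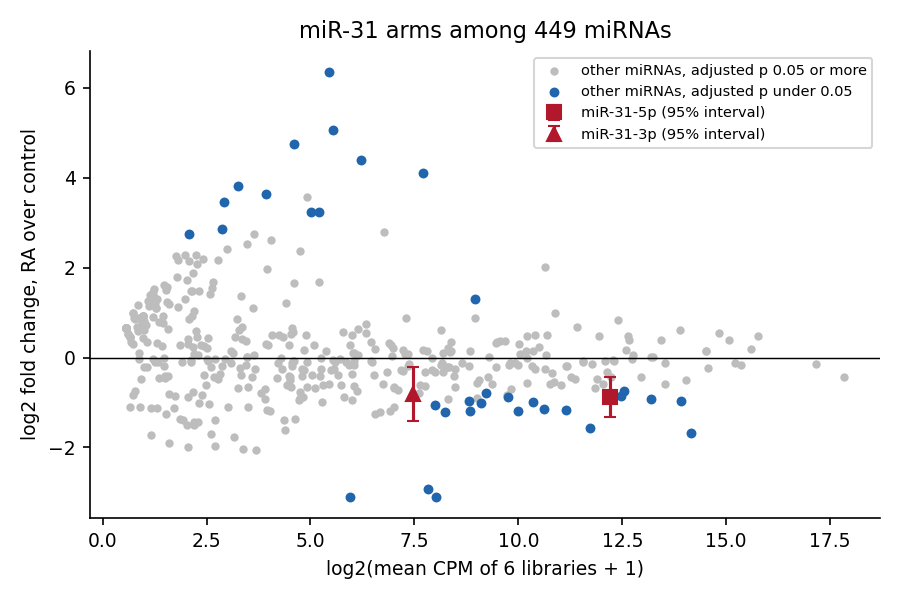
Log2 fold change, RA over control, against log2 of the mean CPM plus 1 for all 449 miRNAs. Blue points passed an adjusted p under 0.05 from limma, and the red square (miR-31-5p, -0.88) and red triangle (miR-31-3p, -0.81) carry 95% intervals, both of which lie below 0.

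The ratio of the arms asks whether the strands moved together. miR-31-5p outnumbered miR-31-3p by 28.7, 18.9 and 33.7 reads to 1 in RA replicates 1, 2 and 3. In control replicates 1, 2 and 3 the ratio was 40.3, 16.3 and 31.8. The groups overlapped, since the lowest and the highest ratio were both those of controls. The 3p strand made up 3.36%, 5.02% and 2.89% of the reads of both arms in the RA libraries and 2.42%, 5.78% and 3.05% in the controls. The ratio averaged 27.1 ± 7.51 after RA and 29.5 ± 12.2 in the controls (SD, n = 3 each). On the log2 scale the RA mean minus the control mean was -0.06 (exact two-sided permutation p = 0.9, a test chosen after the ratios were seen), and it lay between -0.44 and 0.21 when 1 library at a time was left out. A change of ratio smaller than the spread between libraries cannot be detected here. Among controls the spread was larger than counting error, with exact intervals of 15.4 to 17.3 in replicate 2 and 36.3 to 44.9 in replicate 1.

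**Figure D3:**
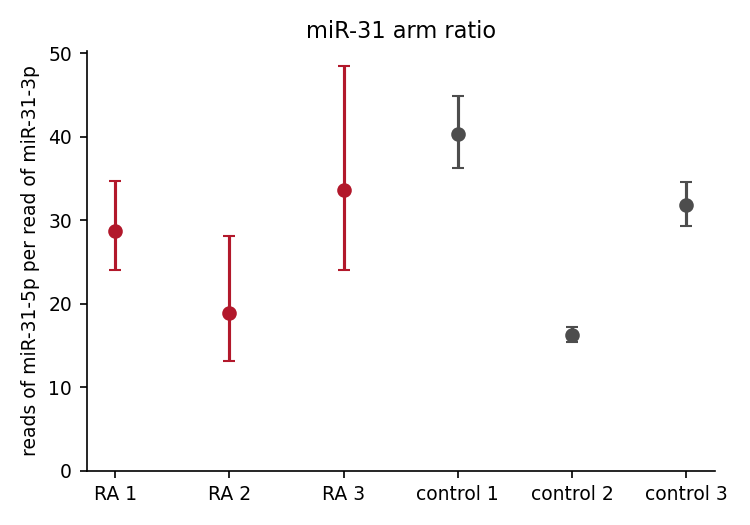
Reads of miR-31-5p per read of miR-31-3p in each library, with exact 95% binomial intervals. The 3 RA ratios (18.9 to 33.7) lie within the range of the 3 control ratios (16.3 to 40.3).

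Other hairpins give a scale for these arms. There were 58 hairpins of a single precursor with both arms at a mean of at least 10 CPM. In the controls the mean level of the major arm of miR-31 was 27.5 times that of its minor arm, against a median of 16.2 over the 58 hairpins, and 23 had a larger ratio. Both arms had every RA library below every control in 6 hairpins, or 10.3%, namely miR-31, miR-30d, miR-140, miR-193a, miR-195 and miR-374b. The log2 fold changes of the arms of miR-31 differed by 0.07, against a median difference of 0.45, and 8 hairpins had a smaller one. No hairpin had both arms called by limma, with 5 at an unadjusted p under 0.05 in both arms. At adjusted p edgeR, DESeq2 and limma-voom on recovered reads called both arms of 1, 4 and 2 hairpins, of which miR-31 was none. By unadjusted p, miR-31 was among the hairpins with both arms lower in all 4 of these tools.

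**Figure D4:**
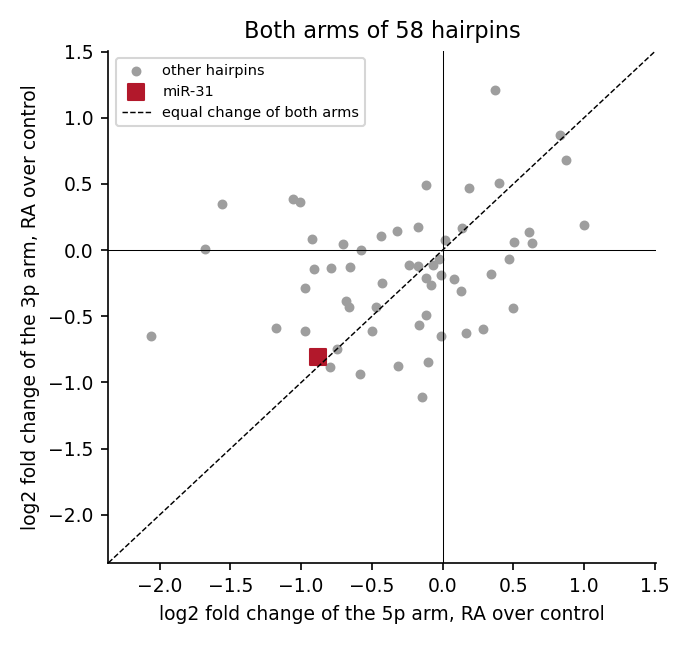
Log2 fold change, RA over control, of the 3p arm against that of the 5p arm for 58 hairpins with both arms at a mean of at least 10 CPM. miR-31 (red square, -0.88 and -0.81) lies near the dashed line of equal change.

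By level, miR-31-5p ranked 41st, 39th and 37th of 449 in RA replicates 1, 2 and 3 and 25th, 33rd and 28th in control replicates 1, 2 and 3. These ranks do not depend on scaling, and all 3 RA ranks were below all control ranks. Mature miRNAs are of nearly equal length, but adapters are joined to them with unequal efficiency, so the order of different miRNAs is approximate. By mean level in the RA libraries, its neighbours were miR-22-3p at 3358 ± 938 CPM and miR-532-5p at 3325 ± 806 CPM above it, and miR-122-5p and miR-218-5p, the last at 3159 ± 101 CPM, below it (SD, n = 3 each). The mean of miR-122-5p rested on RA replicate 1. In the controls the neighbours were miR-99a-5p at 6873 ± 816 CPM and miR-191-5p at 6696 ± 347 CPM above it, and miR-221-3p at 5806 ± 347 CPM and miR-27a-3p at 5595 ± 887 CPM below it (SD, n = 3 each). All these neighbours overlapped miR-31-5p in range, so their order against it is not settled.

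Among the metastasis-linked miRNAs listed here, miR-31-5p averaged above most of the measured suppressors. This place depends on the list, which was chosen with earlier results of these data known. It leaves out miR-30a-5p, which the paper describes as inhibiting migration and invasion of breast cancer cells. In the controls miR-30a-5p averaged 27986 CPM, more than miR-31-5p. Of 20 other miRNAs listed for suppressing spread of breast cancer or related tumours, 17 were measured. In the RA libraries 2 of them averaged more than miR-31-5p, miR-7-5p at 14113 ± 3235 CPM and miR-146b-5p at 4094 ± 842 CPM, and in the controls 1 did, miR-7-5p at 19641 ± 2287 CPM (SD, n = 3 each). miR-146b-5p, which restrains NF-κB signalling, averaged 5566 ± 1242 CPM in the controls. miR-335-5p, a suppressor named in work on human breast cancer cells in mice, was near 0, with 0, 0 and 1 reads in the RA libraries and 0, 0 and 1 in the controls. The epithelial miR-200 members, which hold back the epithelial to mesenchymal transition, were also low, with miR-200b-3p at 151 ± 9.56 CPM after RA and 173 ± 38.3 CPM in the controls (SD, n = 3 each) and miR-200c-3p at 3, 1 and 2 reads in the RA libraries and 11, 17 and 15 reads in the controls.

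None of the 17 suppressors passed in limma. On recovered reads at adjusted p, edgeR called 2 higher and 1 lower, DESeq2 1 and 0 and limma-voom 1 and 1. Over all miRNAs these tools called 38 higher and 28 lower, 45 and 21, and 47 and 30. At an unadjusted p under 0.05 limma had 0 suppressors higher and 2 lower, edgeR 2 and 1, DESeq2 1 and 1 and limma-voom 3 and 2. The median log2 fold change of the 17 suppressors in limma was -0.18, beside 0.00 over all 449 miRNAs. Of the 17, 13 averaged 10 CPM or more, and over the 260 miRNAs at that level the median was -0.17. The suppressors as a list were therefore close to miRNAs of like level. The nearest to miR-31-5p in size was miR-145-5p, a miRNA of smooth muscle and stromal cells, at 219 ± 55.3 CPM after RA and 416 ± 93.4 CPM in the controls (SD, n = 3 each). For it limma gave -0.93 ± 0.26 on the log2 scale (estimate and standard error) with an adjusted p of 0.053. It was the only one of the 17 with every RA library below every control. This separation was seen in 17.1% of all miRNAs and in 26.2% of the 260 averaging 10 CPM or more. None of the 17 had every RA library above every control, beside 8.69% of all miRNAs. miR-126-3p, named as higher by edgeR, DESeq2 and limma-voom, is also an endothelial marker and had no reads in RA replicate 2.

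Of 15 miRNAs listed for promoting spread, 12 were measured, and 1 fell, none rose and 11 did not pass in limma, beside 4.68% lower and 2.9% higher over all miRNAs. Of the 12, 11 averaged 10 CPM or more, and limma called 8.08% of the 260 miRNAs at that level lower. Every RA library was below every control for 5 of the 12 (miR-21-5p, miR-155-5p, miR-103a-3p, miR-107 and miR-214-3p) and above for 1 (miR-22-3p), beside 17.1% and 8.69% of all miRNAs. Among the 260 miRNAs averaging 10 CPM or more, 26.2% had every RA library below every control. The median log2 fold change was -0.25, with 9 of 12 below 0. miR-214-3p, which is abundant in stromal cells, fell to 618 ± 136 CPM after RA, against 1115 ± 83.1 CPM in the controls (SD, n = 3 each). For it limma gave -0.87 ± 0.21 on the log2 scale (estimate and standard error) with an adjusted p of 0.024. Its call ended without any single library other than RA replicate 1 (adjusted p up to 0.13) and with library total or upper-quartile scaling (adjusted p up to 0.15). miR-103a-3p and miR-107, which lower Dicer, had log2 fold changes of -0.67 (adjusted p = 0.053 from limma) and -0.66 (adjusted p = 0.075 from limma). miR-22-3p, at 3358 ± 938 CPM after RA and 2061 ± 353 CPM in the controls (SD, n = 3 each), stood at 0.68 on the log2 scale, with an adjusted p of 0.088 in limma, above the threshold of 0.05. In the RA libraries 5 promoters averaged more than miR-31-5p, against 2 in the controls, miR-21-5p and miR-10b-5p. These counts also move with the fall of miR-31-5p itself. Ranges overlapped that of miR-31-5p for miR-22-3p in the RA libraries and for miR-221-3p in the controls, so their order is not settled.

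**Figure D5:**
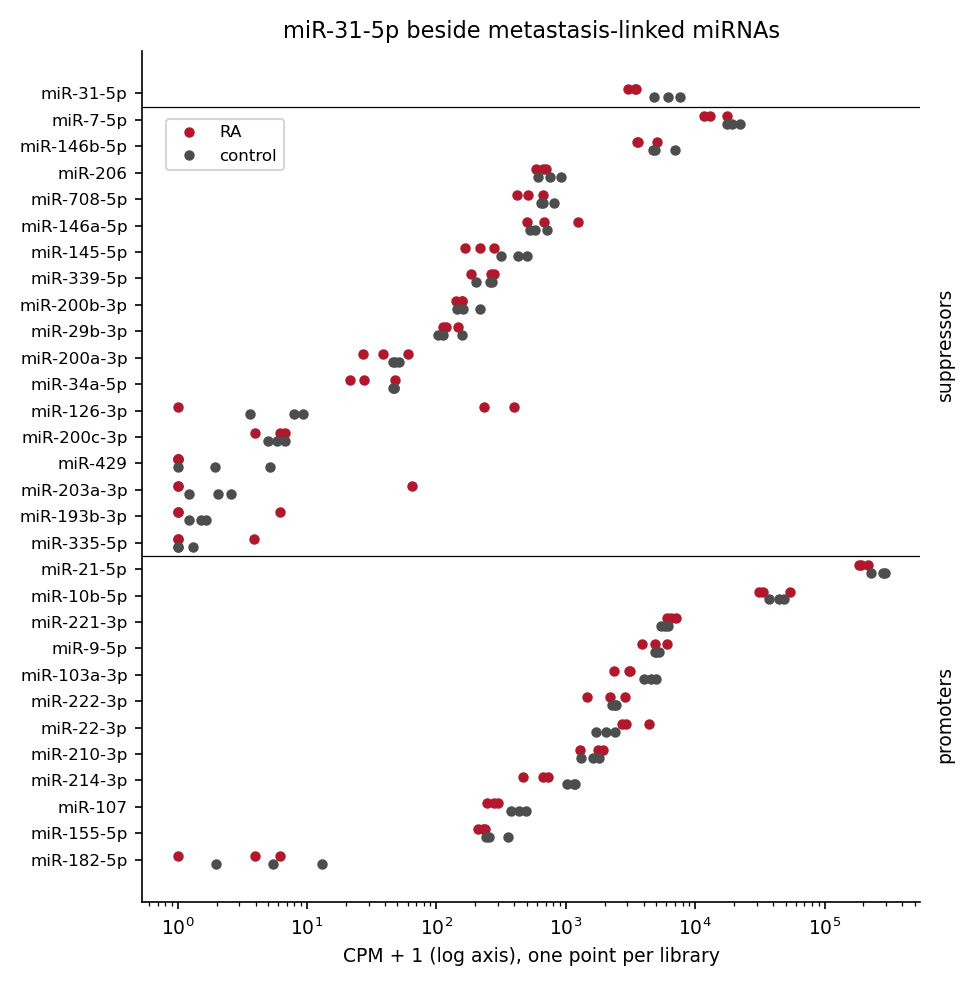
CPM plus 1 on a log axis of miR-31-5p, 17 suppressors and 12 promoters of metastasis, with 1 point per library, RA in red and control in grey. In the controls only miR-7-5p among the suppressors and miR-21-5p and miR-10b-5p among the promoters averaged above the 6199 CPM of miR-31-5p.

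Over the 6 libraries, the miRNAs whose log2(CPM + 1) was most like that of miR-31-5p, among 259 others averaging 10 CPM or more, were miR-185-5p (Pearson r = 0.98), miR-30d-5p (r = 0.97), miR-378a-3p (r = 0.97), miR-542-3p (r = 0.96) and miR-378d (r = 0.95). The points fall into the groups compared and share libraries and scaling, so these values describe mainly the gap between groups. miR-185-5p was at 819, 839 and 948 CPM in RA replicates 1, 2 and 3 and at 2164, 1467 and 1606 CPM in control replicates 1, 2 and 3. Like miR-31-5p it was highest in control replicate 1 and lowest among controls in replicate 2, an order that miR-30d-5p, miR-378a-3p, miR-542-3p and miR-378d shared. Among the RA libraries, where miR-31-5p was highest in replicate 1 and lowest in replicate 2, miR-30d-5p alone of these had the same order, and miR-378a-3p had the reverse one. These miRNAs were picked for likeness to miR-31-5p over the same libraries, so a fall after RA follows largely from that choice. All of them fell in limma, with log2 fold changes of -0.99 (miR-185-5p), -0.97 (miR-30d-5p), -0.75 (miR-378a-3p), -3.10 (miR-542-3p) and -1.21 (miR-378d). miR-378a-3p and miR-378d are close in sequence and may share reads. The call of miR-542-3p held without any single library (adjusted p up to 0.045 from limma). Calls in limma ended for miR-185-5p without RA replicate 2, RA replicate 3 or control replicate 1 (adjusted p up to 0.097), for miR-30d-5p and miR-378d also without control replicate 3 (adjusted p up to 0.12 and 0.16), and for miR-378a-3p without any library but RA replicate 1 (adjusted p up to 0.16). Library total scaling also ended the calls of miR-378a-3p (adjusted p = 0.071 from limma) and miR-378d (adjusted p = 0.055 from limma), and upper-quartile scaling that of miR-378a-3p (adjusted p = 0.10 from limma). The partner arm miR-31-3p was 81st in this order, at r = 0.55. In the controls its order of libraries was the reverse of that of miR-31-5p. Within each group alone the arms ran in opposite directions, at r = -0.90 in the RA libraries and -0.92 in the controls. The positive value over all 6 libraries therefore reflects the gap between groups.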

How the data were processed

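Small RNA libraries of BCSCs, 3 treated with RA and 3 controls, were analysed. The authors deposited 1 CPM signal per mature miRNA and library on an effective library size, and a log2 value per group. The submitters' processing notes name build hg19. For the aligner and the counting tool, no name was given in the sources used. RNA had been pretreated to remove modifications that block adapter ligation. Dividing by the value of 1 read gave whole reads, within 0.01, for 100% of 2694 values. The methods ask for a fold change over 2 and p under 0.05 for miRNAs, with no test named for it beside a general Student test between groups. With 3 libraries a group, limma 3.58.1 (trend over mean level, R 4.3.3) was applied instead to log2(CPM + 1) over 449 miRNAs with Benjamini-Hochberg adjustment. edgeR 4.0.16, DESeq2 1.42.0 and limma-voom on recovered reads, other scalings, filters, pseudocounts, a replicate block and leaving out each library were alternatives. edgeR called 38 miRNAs higher and 28 lower. Lists, members and naming rule (list members, 2 neighbours in level on each side, 5 most alike, nearest miRNA gene) were chosen with earlier results of these data known. Single values were compared by exact permutation tests.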

Additional observations from a re-analysis of the deposited data

How the results depend on the processing

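The log2 fold change of miR-31-5p kept its sign in all 16 alternatives and passed in 11, and leaving out 1 library gave -1.06 to -0.72. With upper-quartile scaling it was -0.75 and no longer passed. Library total scaling moved the median over all miRNAs to 0.13 on the log2 scale (0.12 with upper-quartile scaling, 0.15 in edgeR, 0.32 in DESeq2 and 0.20 in limma-voom) and gave -0.74 (adjusted p = 0.039 from limma). That of miR-31-3p was below 0 in all 16 and passed in none (-0.99 to -0.61). Deviations of same-numbered libraries correlated at 0.12, -0.19 and 0.13, within the range of -0.25 to 0.14 over all pairs of RA and control libraries. With 3 libraries a group this cannot settle whether the numbers pair the samples. With the replicate block the fold change of miR-31-5p was -0.88 (adjusted p = 7.6e-04 from limma), with 24 miRNAs higher and 31 lower, and 1 suppressor higher, 1 suppressor lower, 1 promoter higher and 2 promoters lower. Calls over all miRNAs were 6 to 21 higher and 4 to 28 lower without single libraries, against 13 and 21, and the causes were not tested. With the filter at 10 CPM there were 8 higher, 1 suppressor lower and 2 promoters lower, and with the filter at 1 CPM there were 2 promoters lower. Library total scaling gave 11 lower, upper-quartile scaling 12 lower, and both gave 1 promoter higher and 0 promoters lower. On recovered reads edgeR, DESeq2 and limma-voom gave 38, 45 and 47 higher. There edgeR called 2 suppressors higher and 1 lower, DESeq2 1 suppressor and 1 promoter higher, and limma-voom 1 suppressor higher and 1 lower, and 1 promoter higher and 2 lower. Without single libraries 0 to 1 suppressors were higher, 0 to 1 suppressors were lower and 0 to 1 promoters were lower. miR-145-5p, miR-103a-3p and miR-22-3p passed in 4, 4 and 5 alternatives. The 31 and 35 reads of miR-31-3p in RA replicates 2 and 3 limit its test.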

Other observations

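The arm ratio of miR-31 varied more among the controls than that of any of the other 57 hairpins with both arms at 10 CPM or more. Others came close, such as miR-145 and miR-532, with 5p to 3p ratios of 1.76 to 4.29 and 13.7 to 31.7 in the controls. The highest control ratio of miR-31 was 2.47 times its lowest, against a median of 1.42 over the 58 hairpins. Among the RA libraries the highest was 1.78 times the lowest, against a median of 1.92, and 25 hairpins had a smaller spread. This was looked at after the ratios were seen and is given as a description. Control replicate 2, the deepest library, held the lowest ratio of miR-31-5p to miR-31-3p, and the ratio of major to minor arm was lowest there in 27 of 58 hairpins, against 10 in control replicate 1 and 21 in control replicate 3. The median ratio over these hairpins was 17.3, 16.2 and 15.4 in control replicates 1, 2 and 3.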
